A study of Mus musculus with 12 samples.

Results

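The nuclear genes of oxidative phosphorylation were followed in FACS-sorted mouse spermatocytes of 2 meiotic stages and 2 genotype labels. The members were all rows of the deposited table whose symbol begins with Nduf, Uqcr, Atp5 or Cox4 to Cox8, or is Sdha, Sdhb, Sdhc or Sdhd, without Cox8a, Cox8c, Cox6b1 and Cox6b2. This gave 86 genes of the 23235 in the table. They fall into 36 complex I subunits, 4 complex I assembly factors, 4 subunits of complex II, 8 of complex III, 16 of complex IV (with Ndufa4 and Ndufa4l2 placed there) and 15 of complex V. The remaining 3 match by name only: Atp5s, Atp5sl and Cox4nb, which RefSeq now lists as Dmac2l, Dmac2 and Emc8. All 86 were matched to RefSeq. Ndufa1, Ndufb11 and Cox7b are X-linked, and 83 are autosomal.

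All libraries came from C57BL/6 mice and from poly(A) RNA, amplified as cDNA. There were 4 groups of 3 libraries: wild-type (WT) leptotene/zygotene (LZ) cells, Rnaseh1 knock-out-labelled (KO-labelled) LZ cells, WT pachytene cells and KO-labelled pachytene cells. The Rnaseh1 allele, any Cre driver, the ages and the number of animals are not given in the sources used here, so p-values measure the spread between these libraries, which may be technical. Rnaseh1 itself, the gene targeted for deletion, was at 17.8 ± 2.39 (SD, n = 3) in WT LZ and 14.7 ± 3.62 in KO-labelled LZ, and at 53.7 ± 2.74 in WT pachytene and 80.2 ± 12.97 in KO-labelled pachytene. Neither difference passed the test (limma log2 -0.28 and 0.56, adjusted p = 0.407 and 0.0638), so the targeted transcript does not check the label, and every direction given below for the genotype rests on the label.

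Oxidative phosphorylation takes place in the inner mitochondrial membrane. Complexes I (NADH dehydrogenase) and II (succinate dehydrogenase) pass electrons to ubiquinone, complex III passes them to cytochrome c, complex IV (cytochrome c oxidase) passes them to oxygen, and complex V (ATP synthase) uses the resulting proton gradient to make ATP. A few core subunits are encoded by mitochondrial DNA, while the other subunits are nuclear and are imported. Spermatocytes change their metabolism as they enter pachytene, when several testis-specific isoforms of mitochondrial proteins appear and when the X and Y chromosomes are transcriptionally silenced in the sex body.

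The values are FPKM, fragments per kilobase of transcript and 1000000 mapped fragments. The authors then put the libraries on a common scale with added ERCC control RNA (the spike-in scale). On this scale the values of all genes summed to between 430370 and 885260 in the 6 LZ libraries and to between 3320000 and 6702200 in the 6 pachytene libraries, and the median gene was higher at pachytene. Changes are given on the spike-in scale, beside the median of all genes, and after each library was rescaled by the median ratio to a common reference, where the all-gene median of the WT stage comparison was -0.05 in place of 1.64 (log2). Fewer cells of a type and less RNA per cell cannot be told apart in such bulk samples. The 6 leptotene/zygotene markers took 0.290 to 0.431% of the summed FPKM in WT LZ and 0.340 to 0.493% in KO-labelled LZ. At pachytene they took 0.211 to 0.229% in WT and 0.148 to 0.208% in KO-labelled libraries. Their levels did not move together between the WT stages on the spike-in scale. Dmc1 and Prdm9 fell (log2 -1.55 and -1.41), Spo11, Hormad1 and Sycp3 rose (3.22, 1.74 and 1.60), and Stra8 had no call (0.26, limma). The markers of the pachytene list took 0.313 to 0.401% in WT LZ, 0.245 to 0.341% in KO-labelled LZ, 0.721 to 0.852% in WT pachytene and 0.995 to 1.14% in KO-labelled pachytene. Those of the spermatid list, such as protamines, took 2.09 to 3.59% in WT LZ, 0.165 to 1.27% in KO-labelled LZ, 0.886 to 1.33% in WT pachytene and 0.0299 to 0.195% in KO-labelled pachytene. Leydig cell markers took 0.000614 to 0.00212% in WT LZ, 0.000708 to 0.0207% in KO-labelled LZ, 0.0690 to 0.212% in WT pachytene and 0.0258 to 0.0879% in KO-labelled pachytene, and Lhcgr was listed at 0 in all WT LZ libraries. At pachytene the highest of them was Insl3, at 5710 in WT and 3338 in KO-labelled cells (limma log2 -0.91, adjusted p = 0.490). Hsd3b1 and Lhcgr were higher in KO-labelled pachytene (limma log2 1.49 and 1.68, adjusted p = 0.0308 and 0.0127), and Cyp11a1, Cyp17a1 and Star had no call. The part of these markers' cells in the results below was not tested.

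The respiratory chain genes were among the most abundant transcripts in every library. The median member ranked above 98.0 to 98.5% of all genes in each of the 12 libraries. Together the 86 genes took 6.41 to 6.88% of the summed FPKM in WT LZ, 6.07 to 7.77% in KO-labelled LZ, 7.34 to 8.56% in WT pachytene and 7.17 to 8.08% in KO-labelled pachytene. The WT groups did not overlap in this share, whereas the KO-labelled groups did. Complex I accounted for 2.41 to 2.70% in WT LZ and 3.05 to 3.58% in WT pachytene, and complex III for 0.764 to 0.814% and 1.01 to 1.09%. The share of complex V was 1.36 to 1.38% in WT LZ and 1.24 to 1.47% in WT pachytene, so these groups overlapped.

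**Figure D1:**
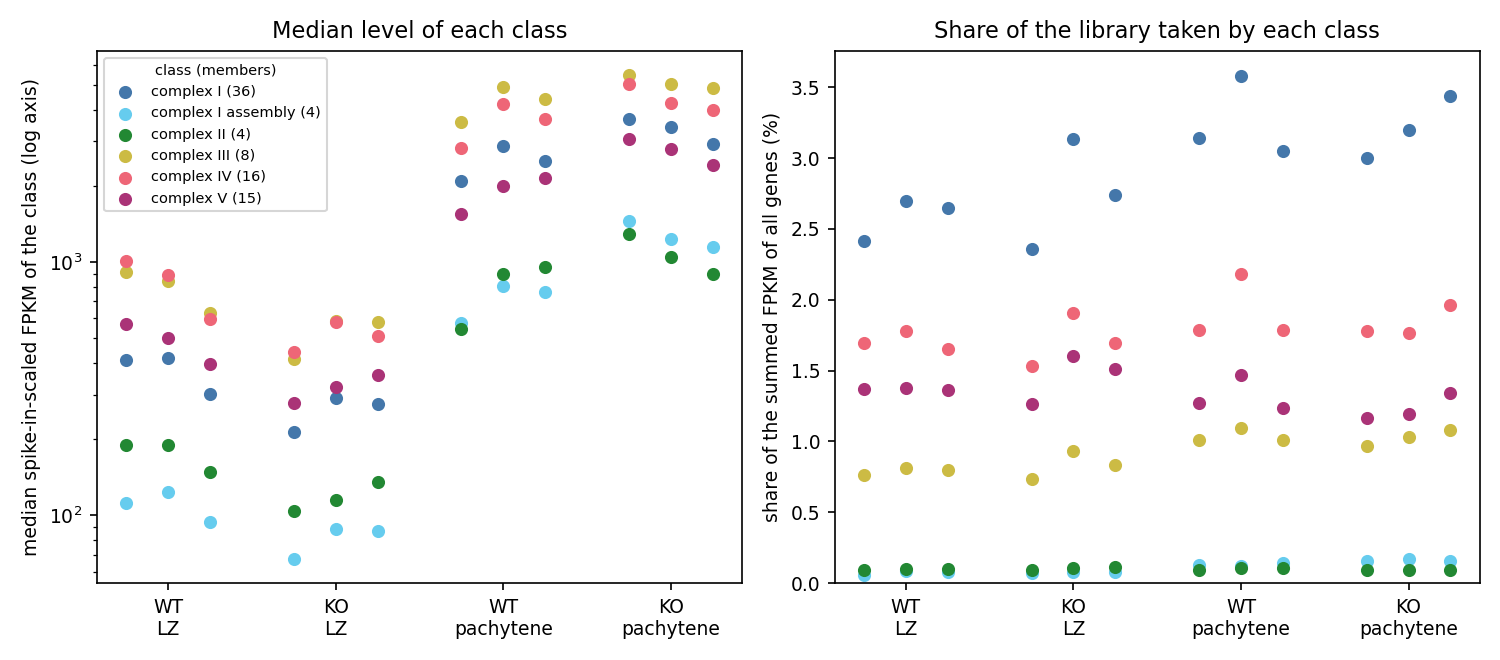
Median spike-in-scaled FPKM (left, log axis) and percent of the summed FPKM of all genes (right) of each class of respiratory chain genes; each point is 1 library, 3 per group, and LZ means leptotene/zygotene. All class medians are higher in the pachytene libraries, whereas in the shares complex I moves from 2.41 to 2.70% (WT LZ) to 3.05 to 3.58% (WT pachytene) and complex V stays between 1.17 and 1.60% throughout.

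Between WT LZ and WT pachytene, the genes of all 5 complexes rose together on the spike-in scale, and the medians of complexes III and I were the highest. Of the 84 members tested, 81 were higher and 0 lower (limma, adjusted p under 0.05), where 80.9% of all 15400 genes tested were higher and 0.487% lower. For 81 of the 84 all 3 pachytene libraries lay above all 3 LZ libraries, as for 83.0% of all genes, and for 0 they lay below (0.864%). All 84 fitted changes were above 0, and the same 81 were called whichever single library was left out. Each of these fits called between 74.3 and 82.1% of all genes higher. The median log2 change of the members was 2.48, against 1.64 for all genes. By class the medians were 2.72 for complex III, 2.61 for complex I, 2.38 for complex II, 2.29 for the assembly factors, 2.28 for complex IV and 2.18 for complex V, and the differences between classes were not tested. Cox4i2, at or below 0.978 in every library, and Cox8b, listed at 0 in all, were not tested. The 3 tested members without a call were Ndufa1, Atp5g2 and Cox6a2.

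After median-ratio scaling the stage difference of the members was smaller but still leaned upwards. There 36 of 83 were higher (43.4%, against 20.8% of 14840 genes) and 5 lower (6.02%, against 18.9%), with a median of 0.42 against -0.05 for all genes. Complex I held 22 of the higher calls among its 36 subunits and complex III 5 among 8, whereas complex IV had 3 of 13, complex V 2 of 15 and complex II 1 of 4. When libraries were scaled to equal sums instead, 25 were higher (30.1%, against 14.5%) and 14 lower (16.9%, against 27.8%), and 5 of the lower genes belonged to complex V, which had 0 higher.

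In the KO-labelled cells the same comparison gave larger changes. On the spike-in scale 82 of 84 members were higher and 0 lower (76.8% and 2.83% of all genes), with a median log2 change of 3.59 against 2.29 for all genes. The libraries of the 2 stages did not overlap, with pachytene higher, for 81 members (75.9% of all genes), and with pachytene lower for 0 (2.84%). Ndufa1 and Ndufb11, both X-linked, were the only tested members without a call. After median-ratio scaling 50 of 83 were higher (60.2%, against 32.3%) and 8 lower (9.64%, against 31.2%), and with equal sums 26 were higher (19.9% of all genes) and 26 lower (45.1%). A set of 22 members was higher in both genotypes under both rescalings: Cox4i1, Cox7a2, Cox7b2, Uqcr10, Uqcrc1, Uqcrq, the assembly factors Ndufaf2 and Ndufaf3, and the complex I subunits Ndufa2, Ndufa6, Ndufa7, Ndufa8, Ndufb2, Ndufb3, Ndufb4, Ndufb5, Ndufb10, Ndufc1, Ndufs4, Ndufs6, Ndufv2 and Ndufv3. No complex V or complex II gene was among them. Ndufa1, Ndufa4, Atp5g2 and Cox4nb were lower in both genotypes under both rescalings. The share of all genes that met the same joint rule, higher or lower, was not computed.

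**Figure D2:**
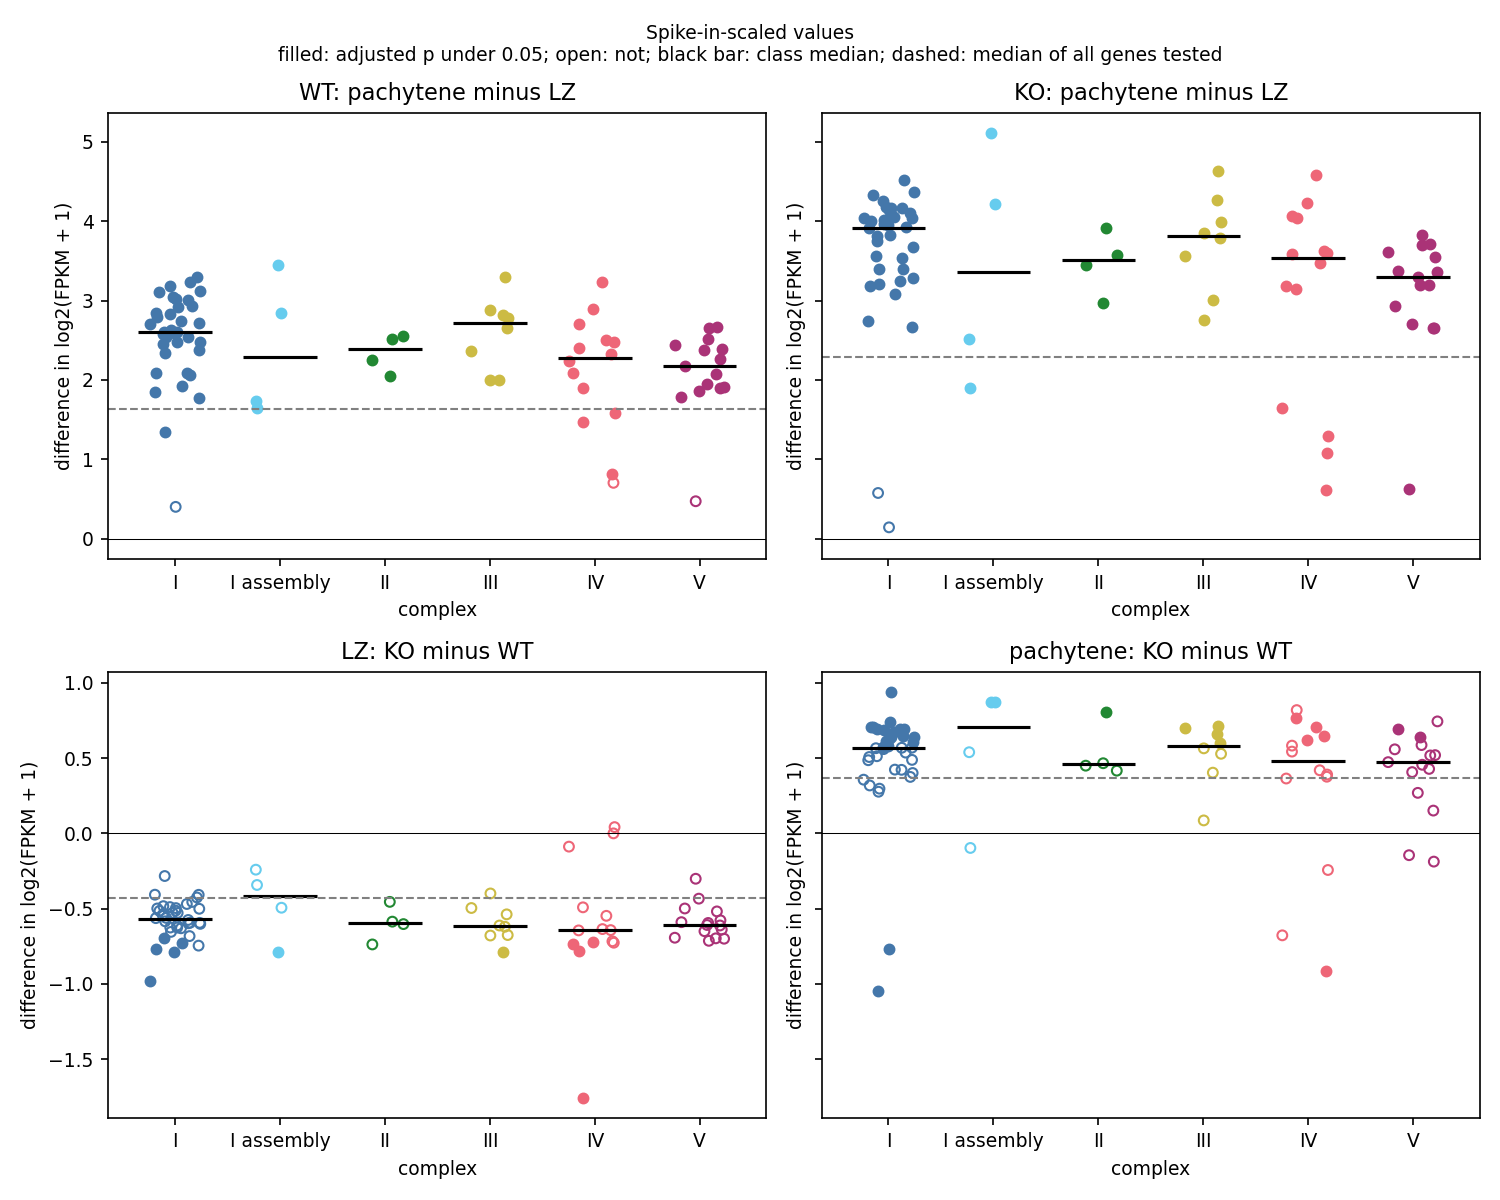
Difference in log2(FPKM + 1) of each tested member on the spike-in scale, by complex, for the stage comparison in each genotype (top) and the genotype comparison at each stage (bottom); each point is 1 gene, filled at adjusted p under 0.05, with the class median as a black bar and the median of all genes as a dashed line. The top panels lie above 0 throughout, with 81 and 82 members called higher, while in the bottom right panel Ndufb11, Ndufa4 and Ndufa1 lie apart below 0.

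**Figure D3:**
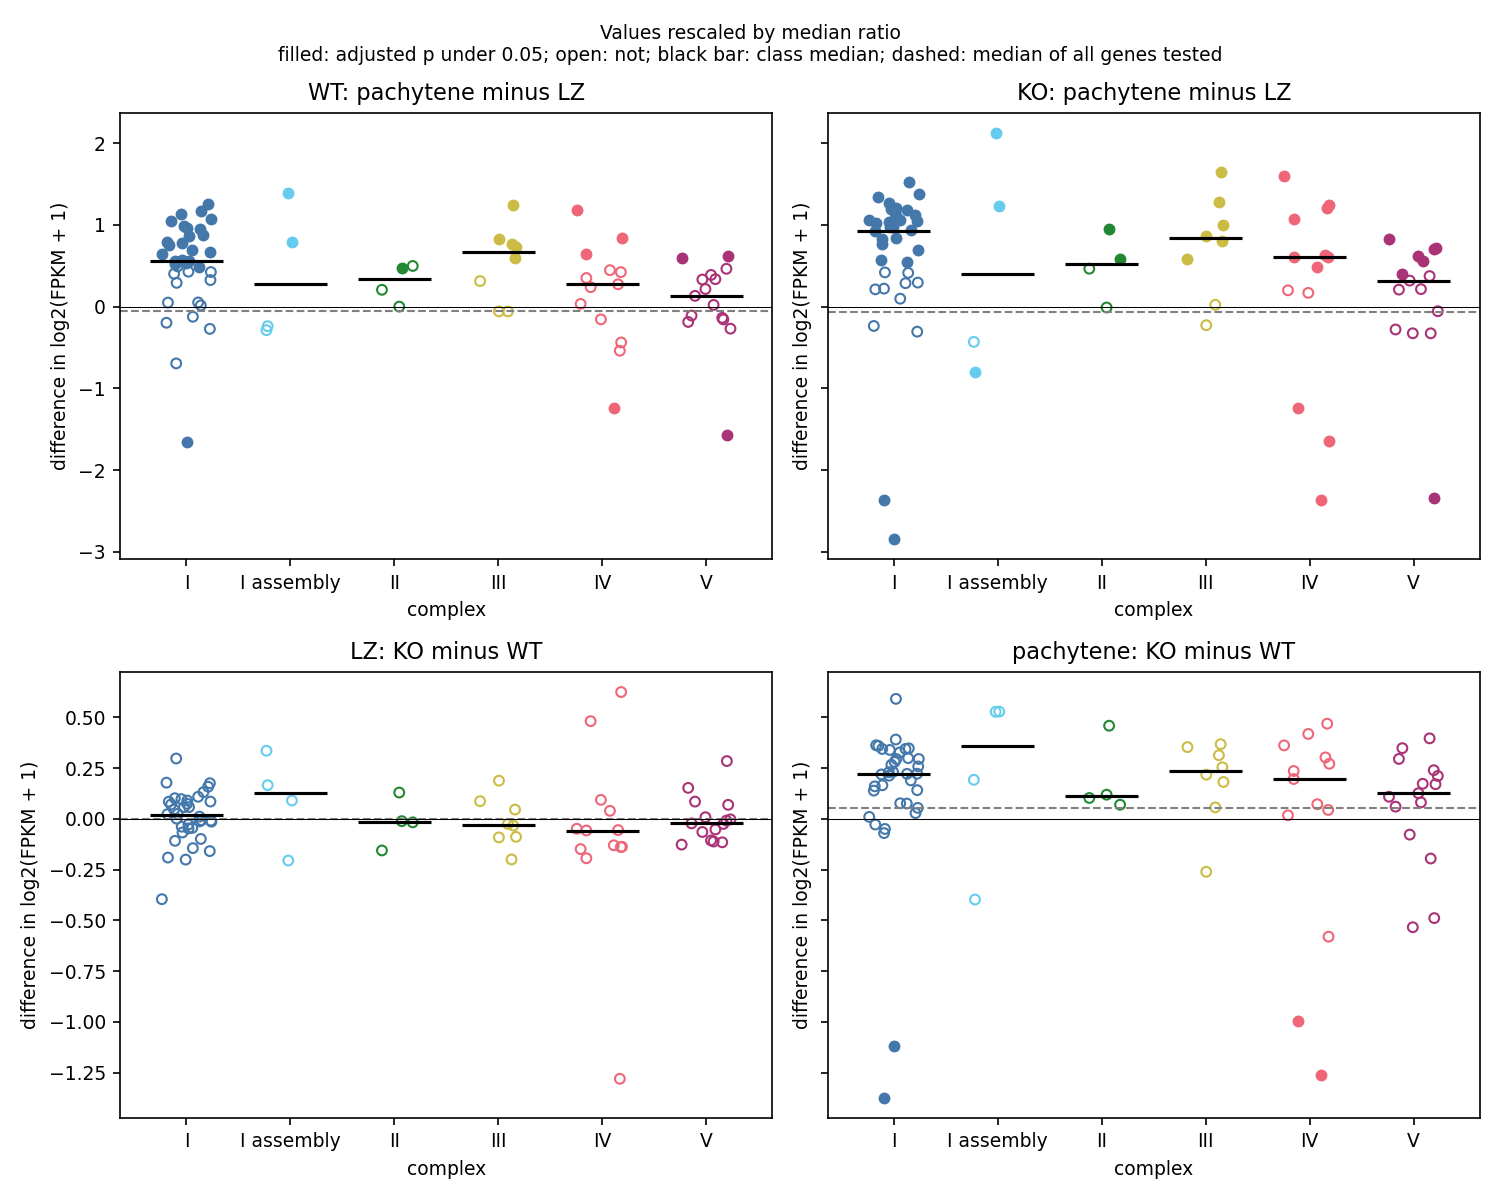
The same differences after each library was rescaled by its median ratio to a common reference; each point is 1 gene, filled at adjusted p under 0.05, with the class median as a black bar and the median of all genes as a dashed line. In WT, complex I and III medians lie at 0.56 and 0.67 and that of complex V at 0.13; at LZ no member is called between genotypes, and at pachytene the 4 called members are all lower.

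Complex I, the entry point for electrons from NADH, held the member with the highest mean over the 12 libraries, the small accessory subunit Ndufc1. Its FPKM values were 1884, 2216 and 1503 in WT LZ, 932, 1471 and 1312 in KO-labelled LZ, 13565, 20541 and 14999 in WT pachytene and 26651, 25789 and 23096 in KO-labelled pachytene libraries. Each pachytene library was above each LZ library of its genotype, and the mean was 8.76-fold higher at pachytene in WT and 20.3-fold in KO-labelled cells (log2 change 3.13, SE 0.23, and 4.37, SE 0.23; limma adjusted p = 8.55e-08 and 9.27e-10). After median-ratio scaling the changes were 1.07 (adjusted p = 0.00434) and 1.38 (adjusted p = 0.000383, limma).

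Among complex I subunits, Ndufv3, an accessory subunit of the NADH-oxidising module, had the highest WT stage change. It went from 164 ± 34.6 (SD, n = 3) in WT LZ to 1621 ± 352 in WT pachytene. In the KO-labelled cells Ndufb10, a subunit of the membrane arm, led, going from 350.3 ± 74.9 to 7949 ± 1076. Core subunits had lower values. Ndufs1, which carries iron-sulphur clusters, had a log2 change of 2.09 (SE 0.23) in WT, Ndufv1, which binds NADH and FMN, one of 2.06 (SE 0.22) and Ndufs7, at the ubiquinone site, one of 1.85 (SE 0.22). Relative to other genes these 3 did not pass the test after median-ratio scaling, with changes of 0.05, 0.02 and -0.20 (limma adjusted p = 0.829, 0.961 and 0.474).

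The 4 assembly factors, which help build complex I and do not stay in it, split into pairs. Ndufaf3 had the highest stage change of all members, with FPKM values of 299, 447 and 264 in WT LZ, 179.9, 181 and 209 in KO-labelled LZ, 3115, 3417 and 4298 in WT pachytene and 7486, 7252 and 5191 in KO-labelled pachytene libraries. The KO-labelled libraries were below all WT ones at LZ and above all WT ones at pachytene. The means were 10.7-fold higher at pachytene in WT and 35-fold in KO-labelled cells, and the log2 changes after median-ratio scaling were 1.39 and 2.12 (limma adjusted p = 0.000203 and 3.15e-06). Ndufaf2 followed with 0.79 and 1.23 on that scale (adjusted p = 0.00421 and 9.49e-05). Ndufaf1 and Ndufaf4 rose on the spike-in scale by 1.74 and 1.65 in WT, close to the median of all genes. Ndufaf4 was low, at 6.45 ± 0.951 in WT LZ and 22.3 ± 2.68 in WT pachytene.

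Complex II, which links the citric acid cycle to the chain, had all 4 genes called higher at pachytene in both genotypes on the spike-in scale. Sdha, the flavoprotein that oxidises succinate, had FPKM values of 70.3, 63.1 and 45.6 in WT LZ, 29.1, 38.6 and 51.9 in KO-labelled LZ, 359.7, 258 and 426 in WT pachytene and 700.2, 593 and 510.3 in KO-labelled pachytene libraries. Sdhb, the iron-sulphur subunit and the most abundant of the 4, went from 340.5 ± 57.8 in WT LZ to 2000.3 ± 347 in WT pachytene. The membrane anchors Sdhc and Sdhd went from 195 ± 28.1 and 157 ± 19.9 to 823 ± 207 and 777 ± 245. No pachytene library overlapped an LZ library of its genotype in any of the 4, and the WT log2 changes lay between 2.05 and 2.55. After median-ratio scaling Sdha alone passed the test in WT, at 0.48 (SE 0.16; limma adjusted p = 0.0361), and Sdhc stood at 0.00 (adjusted p = 0.999).

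Complex III carried the highest median change in WT. Uqcrq, a small subunit that contacts cytochrome b, was its most abundant gene and had FPKM values of 1635, 1825 and 1295 in WT LZ, 823, 1185 and 1090.5 in KO-labelled LZ, 13644, 16714 and 16168 in WT pachytene and 27379, 27256 and 21825 in KO-labelled pachytene libraries. All 6 pachytene values were above all 6 LZ values, and its log2 change was 3.30 (SE 0.21) in WT and 4.63 (SE 0.21) in KO-labelled cells, or 1.24 and 1.64 after median-ratio scaling (limma adjusted p = 0.000442 and 1.84e-05). The core protein Uqcrc1 went from 307 ± 56 to 2215 ± 663 in WT, its partner Uqcrc2 from 131 ± 11 to 686 ± 133, and the Rieske iron-sulphur protein Uqcrfs1 from 171 ± 34.5 to 1074 ± 188. Uqcrb, which helps bind ubiquinone, rose by 2.89 in WT. Uqcrh and Uqcr11 rose least, by 1.99 and 1.996 in WT, and stood at -0.06 and -0.06 after median-ratio scaling (limma adjusted p = 0.838 and 0.855).

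Complex IV ranged from a WT stage change of 0.70 for Cox6a2 to one of 3.24 for Cox7b2. Its highest mean over the 12 libraries was that of Cox4i1, the ubiquitous form of subunit 4, with FPKM values of 2519, 2329 and 1637 in WT LZ, 1076, 1309.6 and 1342 in KO-labelled LZ, 10632, 16950.0 and 14670.0 in WT pachytene and 24587, 21025 and 17177 in KO-labelled pachytene libraries. All pachytene values were above all LZ values. The matrix-side subunits Cox5a and Cox5b, which belong to the structural shell around the mitochondrially encoded core, went from 1146 ± 217 and 1311 ± 265 in WT LZ to 5764 ± 1164 and 6959 ± 1530.0 in WT pachytene. Their changes after median-ratio scaling, 0.27 and 0.35, did not pass the test in WT (limma adjusted p = 0.317 and 0.231). Cox7a2l, a factor that joins complexes III and IV into supercomplexes, had a change of -0.16 on that scale (adjusted p = 0.456).

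Complex V had the lowest median WT change of the 5 complexes. The core subunits Atp5a1 and Atp5b went from 167 ± 31 and 490.0 ± 86.7 in WT LZ to 759 ± 123 and 1884 ± 306 in WT pachytene, and their changes after median-ratio scaling were 0.13 and -0.11 (limma adjusted p = 0.421 and 0.578). Atp5k, the small membrane subunit e, was the most abundant gene of the complex and had the highest WT change, from 2036 ± 330.5 to 12978 ± 2130.0. Atp5j, coupling factor 6 of the peripheral stalk, led in the KO-labelled cells, from 563 ± 138 to 7836 ± 1002. Atp5k and Atp5j were the 2 complex V genes higher after median-ratio scaling in WT, by 0.62 and 0.60 (limma adjusted p = 0.0323 and 0.0411). Of the 3 genes that match by name only, Atp5s rose by 2.57 in WT and Cox4nb, a subunit of the membrane protein insertion complex of the endoplasmic reticulum, by 0.89.

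Ndufa1, Ndufa4 and Atp5g2 stood apart from the other subunits. Ndufa1, an X-linked membrane subunit of complex I, had FPKM values of 1947, 1806 and 1453 in WT LZ, 901, 1576 and 1238 in KO-labelled LZ, 1936, 2702 and 2255 in WT pachytene and 1008, 1344 and 1751 in KO-labelled pachytene libraries. Its LZ and pachytene ranges overlapped in both genotypes. The log2 change between stages was 0.40 (SE 0.25, limma adjusted p = 0.153) in WT and 0.14 (SE 0.25, adjusted p = 0.612) in KO-labelled cells. Relative to the other genes it fell, by 1.65 and 2.84 on the log2 scale after median-ratio scaling (limma adjusted p = 0.00116 and 9.41e-06).

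Ndufb11, an X-linked membrane subunit of complex I, had lower values, of 77.9, 69.7 and 61.2 in WT LZ, 39.2, 74.1 and 62.7 in KO-labelled LZ, 159, 222 and 157 in WT pachytene and 64.1, 96.1 and 100.1 in KO-labelled pachytene libraries. In WT its pachytene libraries were all above the LZ ones (1.34, SE 0.27, limma adjusted p = 0.000379), whereas in KO-labelled cells the 2 ranges overlapped (0.58, SE 0.27, adjusted p = 0.0599). Cox7b, the X-linked form of complex IV subunit 7b, had values of 20.8, 19.2 and 15.4 in WT LZ, 11.5, 22.7 and 19.3 in KO-labelled LZ, 74.7, 112 and 87.3 in WT pachytene and 47.3, 50.3 and 73.9 in KO-labelled pachytene libraries and was higher at pachytene in both genotypes on the spike-in scale (2.24 and 1.65; limma adjusted p = 5.98e-06 and 7.65e-05). After median-ratio scaling the WT change of Cox7b was 0.24 (adjusted p = 0.556) and that in KO-labelled cells -1.24 (adjusted p = 0.00351). The 612 tested X-linked genes as a whole had a median log2 stage change of 0.71 in WT and -0.10 in KO-labelled cells on the spike-in scale, both below the medians of all genes, 1.64 and 2.29.

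Ndufa4 is autosomal (chromosome 6), once assigned to complex I and now known as a subunit of complex IV. It had values of 1074, 793 and 632 in WT LZ, 419, 539.9 and 534 in KO-labelled LZ, 1179, 1874 and 1320.0 in WT pachytene and 705, 684 and 900.3 in KO-labelled pachytene libraries. Its stage changes, 0.81 in WT and 0.61 in KO-labelled cells, passed the test on the spike-in scale (limma adjusted p = 0.00671 and 0.0298) but were the lowest of complex IV genes other than Cox6a2 in WT, and the lowest in KO-labelled cells. After median-ratio scaling they were -1.24 and -2.37 (limma adjusted p = 0.00212 and 9.61e-06). The direction of Ndufa1, Ndufa4 and Atp5g2 between stages thus depended on the scale.

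**Figure D4:**
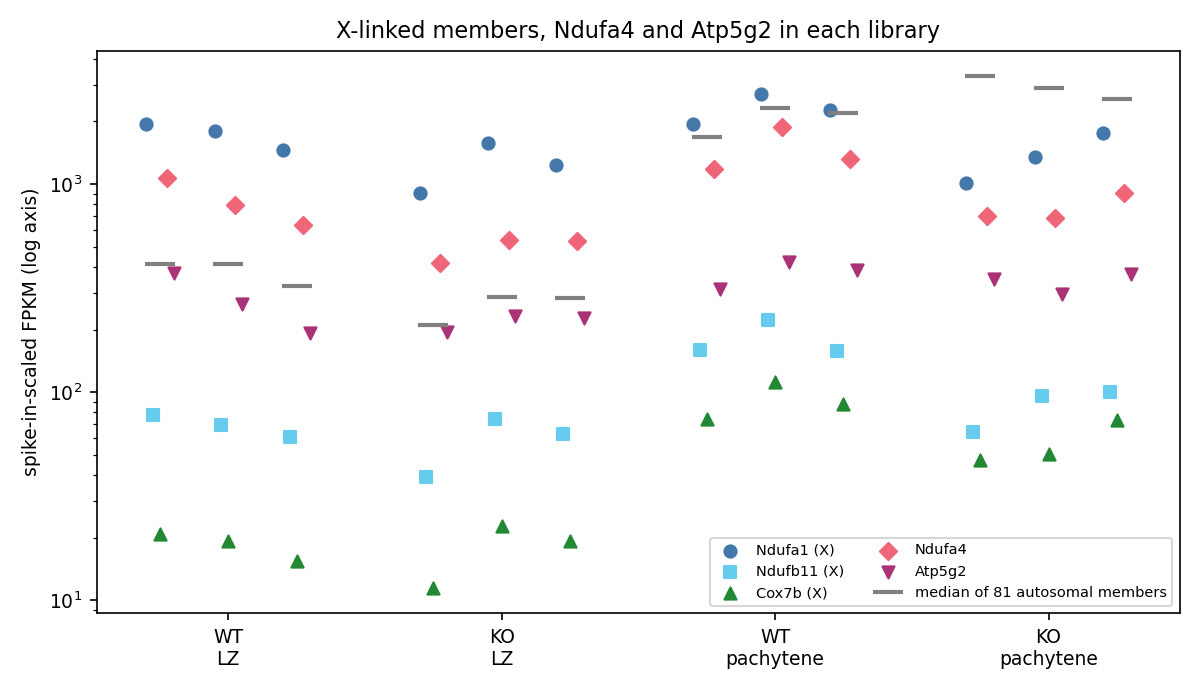
Spike-in-scaled FPKM (log axis) of the 3 X-linked members, of Ndufa4 and of Atp5g2 in each of the 12 libraries, with the median of the 81 autosomal members tested as a grey bar. The grey bars rise from LZ to pachytene, whereas Ndufa1 stays between 901 and 2702 in all libraries, and in KO-labelled pachytene Ndufa1, Ndufb11, Cox7b and Ndufa4 lie below WT pachytene.

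For several subunits the ratio of 2 alternative forms differed between the stages. Ratios of 2 forms within a library do not depend on the scaling, apart from the pseudocount, and were tested by an exact two-sided permutation of stages within genotype (400 arrangements, smallest possible p 0.005), with Benjamini-Hochberg adjustment over 7 pairs. For subunit 7b of complex IV, the autosomal form Cox7b2 had values of 954, 985 and 559 in WT LZ, 461, 617 and 491 in KO-labelled LZ, 5989, 9410.2 and 7828 in WT pachytene and 14622, 11360.0 and 11594 in KO-labelled pachytene libraries. It was 45.1-fold above Cox7b in WT LZ, 29.4-fold in KO-labelled LZ, 84.7-fold in WT pachytene and 219-fold in KO-labelled pachytene. The log2 ratio rose by 1.97 from LZ to pachytene (adjusted p = 0.007, exact permutation), by 0.998 in WT and 2.93 in KO-labelled cells, and whether these differ was not tested.

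For the c ring of ATP synthase, Atp5g1, Atp5g2 and Atp5g3 encode the same mature protein with different import sequences. At WT LZ they stood at 374 ± 50.8, 277 ± 90.4 and 308 ± 61.9, and at WT pachytene at 1804 ± 246, 375 ± 54.9 and 1608 ± 324 (SD, n = 3). The values of Atp5g2 were 373, 265 and 193 in WT LZ, 194, 232 and 227 in KO-labelled LZ, 315, 422 and 387 in WT pachytene and 348, 297 and 368 in KO-labelled pachytene libraries. Atp5g2 has 2 annotated pseudogenes of at least 95% identity, so the assignment of its reads may be uncertain. The stages overlapped in WT (0.47, SE 0.23, limma adjusted p = 0.0742), whereas all KO-labelled pachytene values were above the KO-labelled LZ ones (0.63, SE 0.23, adjusted p = 0.023). The ratio of Atp5g2 to Atp5g3 was 0.902 in WT LZ, 1.11 in KO-labelled LZ, 0.233 in WT pachytene and 0.176 in KO-labelled pachytene. Its log2 value fell by 2.29 between the stages (adjusted p = 0.007, exact permutation), while that of Atp5g1 to Atp5g3 differed by -0.38 (adjusted p = 0.02, exact permutation), by -0.12 in WT, where the group SDs were 0.117 and 0.102, and by -0.64 in KO-labelled cells.

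Cox7a1, the muscle form of subunit 7a, was at 0.0322 of Cox7a2 in WT LZ and 0.0132 in WT pachytene, and the log2 ratio fell by 2.12 (adjusted p = 0.007, exact permutation). Ndufa4l2, a hypoxia-inducible relative of Ndufa4, had values of 29.8, 28.1 and 19.8 in WT LZ, 14.3, 6.43 and 3.25 in KO-labelled LZ, 65.8, 61.4 and 92.9 in WT pachytene and 176, 136 and 87.5 in KO-labelled pachytene libraries. Its log2 ratio to Ndufa4 rose by 2.04 (adjusted p = 0.0117, exact permutation), by 0.65 in WT and 3.42 in KO-labelled cells. With the replicate number as a block, neither this ratio nor that of Atp5g1 to Atp5g3 passed the permutation test. The other 2 pairs rest on genes near 0. Cox4i2, the hypoxia-responsive form of subunit 4, did not exceed 0.978, and Cox6a2, the heart and muscle form of subunit 6a, was listed at 0 in all LZ libraries and did not exceed 3.67. With the first gene near 0, the pseudocount and the level of Cox4i1 or Cox6a1 set these ratios, so no change is read from them. The log2 differences were -3.27 and -1.75, or -0.73 and 0.61 with libraries scaled to equal sums, and that of Cox6a2 was -0.02 with a pseudocount of 0.1 in place of 1.

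**Figure D5:**
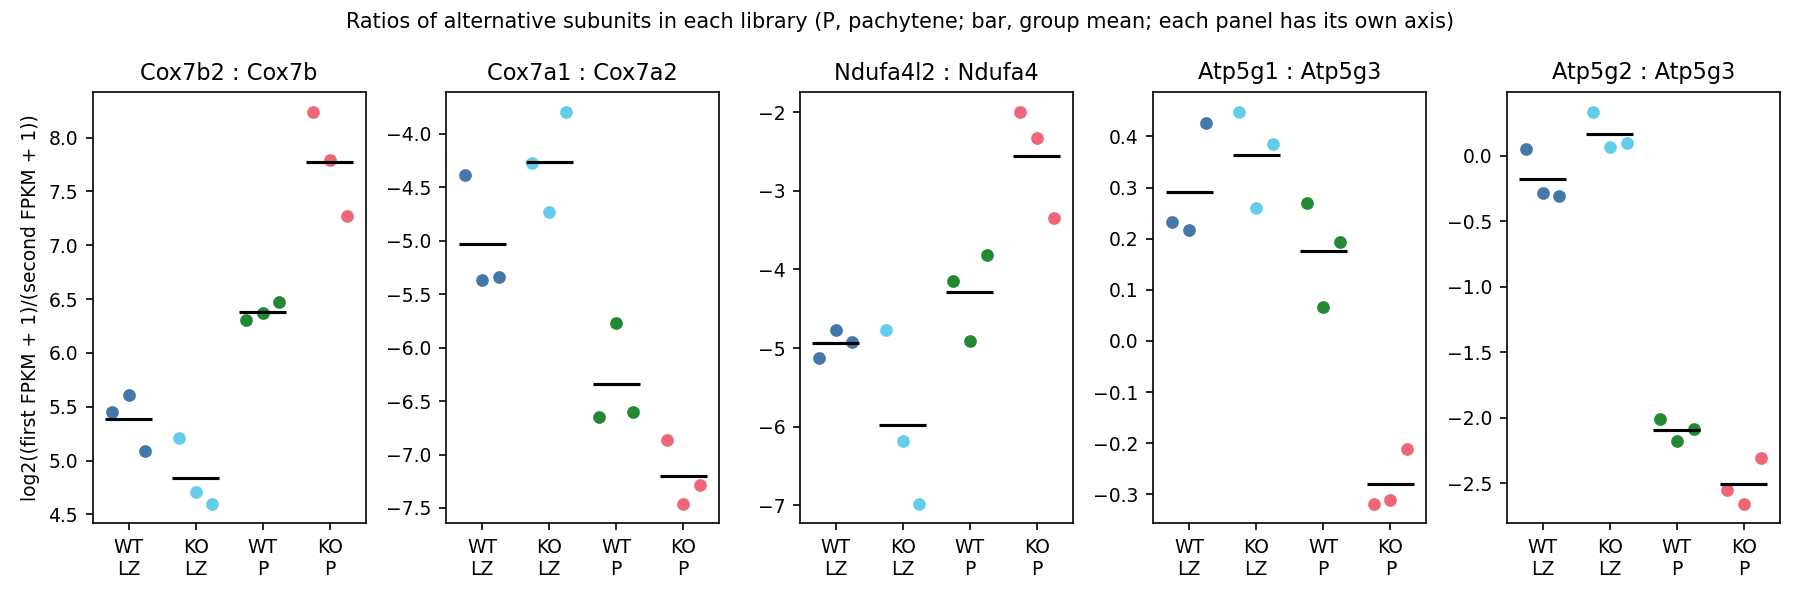
Log2 ratio of 2 alternative subunits, (first FPKM + 1)/(second FPKM + 1), in each library for 5 pairs; points are libraries, bars group means, P is pachytene, and each panel has its own vertical axis. Cox7b2 to Cox7b and Ndufa4l2 to Ndufa4 are highest in KO-labelled pachytene, and Atp5g2 to Atp5g3 drops from near 0 at LZ to between -2.65 and -2.01 at pachytene.

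Promoter sequences from RefSeq (GRCm38.p6; 250 bases before to 50 after the start) were found for 71 of the 86 members, in 77 windows. Shown here are the 250 bases before the start of Atp5g2 and Atp5g3, the pair of forms of which both are abundant whose ratio changed most, of Cox7b2 and Cox7b, and of Ndufa4. Capitals mark matches, on either strand, to the letters searched: GCATGCGC for NRF1, CCGGAAG for ETS factors such as GABPA, AAGATGGC for YY1, AAGGTCA for ERR receptors, and CCAAT.
Atp5g2 (GRCm38.p6, chr15:102671048-102671297, minus strand): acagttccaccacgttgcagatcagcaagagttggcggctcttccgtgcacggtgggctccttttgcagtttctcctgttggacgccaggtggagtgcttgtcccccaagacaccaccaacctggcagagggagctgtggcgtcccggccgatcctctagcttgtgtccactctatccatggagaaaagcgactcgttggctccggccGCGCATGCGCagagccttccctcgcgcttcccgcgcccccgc
Atp5g3 (GRCm38.p6, chr2:73911327-73911576, minus strand): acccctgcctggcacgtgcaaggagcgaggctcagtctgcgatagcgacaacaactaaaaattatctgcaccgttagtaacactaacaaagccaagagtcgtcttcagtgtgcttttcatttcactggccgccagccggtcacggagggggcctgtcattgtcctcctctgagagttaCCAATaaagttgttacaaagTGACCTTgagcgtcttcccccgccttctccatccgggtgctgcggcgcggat
Cox7b2 (GRCm38.p6, chr5:71548206-71548455, minus strand): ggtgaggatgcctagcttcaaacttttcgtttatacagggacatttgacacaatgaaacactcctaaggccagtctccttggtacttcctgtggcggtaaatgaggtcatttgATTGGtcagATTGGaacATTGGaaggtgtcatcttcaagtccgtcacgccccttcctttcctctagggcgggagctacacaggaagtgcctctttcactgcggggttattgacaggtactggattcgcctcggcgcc
Cox7b (GRCm38.p6, chrX:106015450-106015699, plus strand): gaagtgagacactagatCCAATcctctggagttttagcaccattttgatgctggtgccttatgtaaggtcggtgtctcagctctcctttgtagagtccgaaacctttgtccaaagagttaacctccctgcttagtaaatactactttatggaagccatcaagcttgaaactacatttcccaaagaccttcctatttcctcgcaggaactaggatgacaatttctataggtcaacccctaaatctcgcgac
Ndufa4 (GRCm38.p6, chr6:11907451-11907700, minus strand): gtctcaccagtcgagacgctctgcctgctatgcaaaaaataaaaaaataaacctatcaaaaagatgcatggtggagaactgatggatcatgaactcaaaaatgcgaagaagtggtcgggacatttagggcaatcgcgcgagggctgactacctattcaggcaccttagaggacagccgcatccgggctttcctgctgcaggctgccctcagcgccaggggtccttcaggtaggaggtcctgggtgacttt
The window of Atp5g2 held 2 overlapping NRF1 matches, 42 and 40 bases before the start, and that of Atp5g3 held an ERR match 52 bases and a CCAAT match 72 bases before it. In Cox7b2 there were 3 CCAAT matches between 137 and 120 bases before the start. Cox7b had 1 at 233 bases before the start and another after it, beyond the letters shown, and Ndufa4 none of the 5 motifs.

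Over the 300-base windows, the NRF1 letters were present in 14.3% of the 77 member windows and 2.71% of all 32851 windows. The corresponding shares were 15.6% and 2.75% for YY1, 19.5% and 8.86% for ETS, 10.4% and 4.72% for ERR, and 41.6% and 37.4% for CCAAT, which is short and frequent. The letters G and C made up a median of 58.7% of the member windows and 52.7% of all windows. The part of this base composition in the shares was not tested. The members with the NRF1 letters were Atp5g2, Atp5k, Atp5l, Cox6a1, Ndufa6, Ndufa8, Ndufa11, Ndufaf4, Sdhb, Uqcr11 and Uqcrc1. Their median log2 stage change in WT was 2.09 on the spike-in scale, against 2.48 for the 59 tested members whose window lacked the letters, and the values for YY1 were 2.61 with and 2.46 without. For ETS, ERR and CCAAT they were 2.25, 2.43 and 2.38 with the letters and 2.52, 2.49 and 2.52 without. These differences were not tested. A match describes letters in a window and shows no binding.

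At LZ, 82 of the 84 fitted differences between KO-labelled and WT libraries were below 0 on the spike-in scale, and few passed the test. Of 84, 13 were lower and 0 higher (15.5% of members, against 12.9% of all genes lower and 0.136% higher; limma), with a median log2 difference of -0.60 against -0.43 for all genes. At unadjusted p under 0.05, 68 were lower and 0 higher, where 5184 of all 15400 genes passed in either direction. All KO-labelled LZ libraries lay below all WT LZ ones for 62 members (36.5% of all genes) and above them for 0 (0.935%). The 13 were Ndufa7, Ndufa11, Ndufb8, Ndufb9, Ndufs8, Ndufaf3, Uqcrc1, Cox4i1, Cox6a1, Cox7a2, Ndufa4l2, Atp5s and Cox4nb. The share of members called is thus close to the share of all genes.

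Ndufa7, an accessory complex I subunit, had the lowest value of complex I, with 1430.0, 1269 and 935 in WT LZ and 557, 674 and 585 in KO-labelled LZ (log2 difference -0.98, SE 0.20, limma adjusted p = 0.0178). The groups did not overlap. Ndufa4l2 had the lowest value of all members, -1.75 (SE 0.40, adjusted p = 0.021). No member was called after median-ratio scaling (limma; 0.451% of all genes higher and 0.741% lower) or equal-sum scaling (0.942% and 0.899%), where 0 and 3 were higher and 2 and 3 lower at unadjusted p under 0.05. At that threshold 2887 of 14840 and 2844 of 13909 genes passed, in either direction. The count of members called on the spike-in scale was 49 without WT LZ replicate 3 and 0 without WT LZ replicate 1, WT LZ replicate 2 or KO-labelled LZ replicate 3. Of all 15400 genes these fits called 2936, 7, 4 and 88, against 2013 with all 12 libraries. The member count was 3 and 1 without KO-labelled LZ replicates 1 and 2, 7 and 8 without WT pachytene replicates 2 and 3, and 5 without KO-labelled pachytene replicate 2. Of all genes these fits called 1881, 343, 1604, 1673 and 1545. Of the 8 spermatid markers 5 were lower in the KO-labelled LZ libraries, as were 5 of the 8 pachytene markers (Ccna1, Pgk2, Spag6, Ldhc and Adam2), with medians of -2.92 and -0.93.

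At pachytene, 75 of the 84 fitted differences were above 0 on the spike-in scale, while Ndufb11, Ndufa1 and Ndufa4 were lower. Of 84, 31 were higher and 3 lower (36.9% and 3.57%, against 24.6% and 14.3% of all genes; limma), with a median log2 difference of 0.55 against 0.37 for all genes. The groups did not overlap for 57 members with higher (36.4% of all genes) and 4 with lower KO-labelled values (18.0%). The 31 included 17 complex I subunits, both Ndufaf2 and Ndufaf3, Sdha, 4 genes of complex III, 4 of complex IV and 2 of complex V. Ndufaf2 differed by 0.88 (limma adjusted p = 0.0111), Sdha by 0.81 (adjusted p = 0.0319) and Uqcrq by 0.71 (adjusted p = 0.022, limma).

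The lower members were Ndufb11 (-1.05, SE 0.27, limma adjusted p = 0.0157), Ndufa4 (-0.91, SE 0.24, adjusted p = 0.0169) and Ndufa1 (-0.77, SE 0.25, adjusted p = 0.0327). Their WT and KO-labelled pachytene values, given above, did not overlap, with mean ratios of 0.484, 0.524 and 0.595. Cox7b differed by -0.68 (SE 0.28, adjusted p = 0.0664, limma). After median-ratio scaling these 4 were the only called members, at -1.37, -1.26, -1.12 and -0.9967 (limma adjusted p = 0.0143, 0.00961, 0.0297 and 0.0475), or 4.82% of 83 members, where 9.89% of all genes were lower and 3.73% higher. With equal sums Atp5g1, Atp5g2 and Cox4nb were lower as well (10.5% of all genes lower and 0.324% higher). No member was higher under either rescaling (limma), and 7 and 2 were higher at unadjusted p under 0.05. At that threshold 4925 of 14840 and 3404 of 13909 genes passed, in either direction. Of the 612 X-linked genes, 363 were lower and 5 higher on the spike-in scale, with a median of -1.14. All 8 spermatid markers were lower as well, with a median of -2.94, 4 of 5 peritubular and 4 of 5 spermatogonial markers were lower, and 5 of 8 pachytene markers were higher. Of the Leydig markers, Hsd3b1 and Lhcgr were higher and none was lower.

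These counts depended on single libraries. Without KO-labelled pachytene replicate 1 no member was called, and without WT pachytene replicate 1, WT pachytene replicate 2 or KO-labelled pachytene replicate 2 the number was 3, 6 or 2. Of all 15400 genes these fits called 1371, 2165, 2179 and 1348, against 5980 with all 12 libraries. The log2 difference of Ndufb11 kept its sign with each of the 12 libraries left out in turn, between -1.16 and -0.84, and its call was lost 2 times; that of Ndufa4 lay between -1.05 and -0.72 and its call was lost 3 times. That of Ndufa1 lay between -0.97 and -0.57, and its call was lost 5 times.

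The genotype difference itself changed between the stages for most members on the spike-in scale. The interaction of limma called 69 of 84 as more positive at pachytene than at LZ (82.1%, against 34.9% of all genes) and 0 as more negative (3.49%). With each library left out in turn 54 kept the call, where each such fit called between 22.1 and 38.4% of all genes more positive. The median was 1.16 against 0.72 for all genes, and the medians of the 5 complexes and the assembly factors lay between 1.07 (assembly factors) and 1.17 (complex III). The smallest p-values were those of Atp5s (1.62, SE 0.30, limma adjusted p = 0.00507), Ndufaf3 (1.66, SE 0.33, adjusted p = 0.00523) and Ndufaf2 (1.37, SE 0.28, adjusted p = 0.00583). In the negative direction Ndufb11, Cox7b and Ndufa1 came first, at -0.76, -0.59 and -0.26, without passing the test (limma adjusted p = 0.12, 0.249 and 0.588). After median-ratio scaling 0 members were called more positive (2.64% of all genes) and only Ndufb11 more negative, at -1.67 (limma adjusted p = 0.0383; 4.70% of all genes), while 4 were positive and 7 negative at unadjusted p under 0.05. With equal sums 6 were more negative (6.31% of all genes) and 0 more positive (0.726%; 1 at unadjusted p under 0.05). At that threshold 3787 of 14840 genes passed in either direction after median-ratio scaling and 3309 of 13909 with equal sums.

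Genes that act with the chain but fall outside the name rule gave the following counts. Of 29 assembly and accessory genes, 27 were higher at pachytene in WT and 29 in KO-labelled cells on the spike-in scale (80.9% and 76.8% of all genes), with medians of 1.83 and 2.99. Rescaled by the median ratio, 3 of the 29 were called higher and 7 lower in WT (20.8% and 18.9% of all genes). Cyct, the testis form of cytochrome c, the carrier between complexes III and IV, went from 210.5 ± 54.1 in WT LZ to 3392 ± 583 in WT pachytene and from 186 ± 15.0 to 5690.0 ± 540.0 in KO-labelled cells, whereas the somatic form Cycs went from 134 ± 12.6 to 288 ± 34.8 and from 119 ± 46.6 to 116 ± 34.1 (SD, n = 3). Cycs was lower in KO-labelled than in WT pachytene by a log2 difference of -1.34 (limma adjusted p = 0.0107).

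Of 8 tested regulators of respiratory gene transcription, 7 were higher at pachytene in WT on the spike-in scale and 0 lower, where 80.9% and 0.487% of all genes were. Esrra went from 2.06 ± 0.778 to 12.7 ± 1.96, and Tfam, which activates mitochondrial DNA transcription, from 27.8 ± 12.5 to 45.0 ± 2.60. Tfam was lower in KO-labelled cells at both stages, by log2 differences of -1.52 at LZ and -1.43 at pachytene (limma adjusted p = 0.0176 and 0.00939), and Pprc1 was lower at pachytene by -1.12 (adjusted p = 0.0150). Esrra and Yy1 were higher in KO-labelled pachytene, by 1.22 and 0.79 (limma adjusted p = 0.00858 and 0.0355). Nrf1 and Gabpa rose by 1.24 and 1.03 in WT, below the median of all genes. After median-ratio scaling 0 of the 8 regulators were higher and 5 lower in WT (20.8% and 18.9% of all genes).

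For comparison, the 76 mitochondrial ribosomal protein genes had a median WT stage change of 2.23 on the spike-in scale and 0.19 after median-ratio scaling (21 higher, 7 lower), and the 80 cytosolic ones 1.85 and -0.21 (4 higher, 16 lower), where 20.8% of all genes were higher and 18.9% lower. The medians of the respiratory chain genes were 2.48 and 0.42, and the differences between the lists were not tested. For 19 members there is at least 1 annotated pseudogene of at least 95% identity over at least 80% of their coding sequence. Among them are Atp5g1, Atp5g2, Atp5k, Cox7b, Ndufb11, Uqcr11 and Uqcrb. The assignment of reads to these 19 may be uncertain and was not examined.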

How the data were processed

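RNA was measured in 12 libraries of FACS-sorted mouse spermatocytes, 3 per group. Per the labels, the deposited FPKM values were scaled by the authors with ERCC spike-in RNA; the formula and the annotation are not given in the sources used here. The submitters' processing notes name TopHat2 2.1.1, Cufflinks 2.2.1 and the mouse build mm9. The depth is unknown, and 4 unnamed columns were not used. Genes at 1 or more in at least 3 libraries were tested on log2(FPKM + 1), which understates changes of low genes, with limma 3.58.1 (R 4.3.3, trend on, all 12 libraries, Benjamini-Hochberg adjustment over all tested genes, threshold 0.05). The test was checked on simulated data. Isoform ratios used exact permutation tests, enumerated in Python 3.11.15. Alternatives were pseudocounts of 0.1 and 5, no filter or a filter of 5, median-ratio and equal-sum scaling, a replicate block, the 6 libraries of a comparison alone and each library left out. Near-identical pseudogenes and chromosomes came from GRCm38 annotation, promoters from RefSeq. Genes named with values were complex II, X-linked members, isoform sets, core subunits, the most abundant member and the extremes of each class, and the smallest interaction p-values; other genes named were chosen after their values were seen. One result that the rule for named genes would include is not reported here. The members and lists were chosen with earlier results of these data known.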

Additional observations from a re-analysis of the deposited data

Results flagged for a closer look

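The difference between the genotype comparisons of the 2 stages passed the limma interaction test for 69 of the 84 tested members on the spike-in scale, each more positive at pachytene. This was 82.1% of members, where 34.9% of all 15400 genes tested were called more positive. Atp5s had a log2 interaction of 1.62, Ndufaf3 one of 1.66 and Ndufaf2 one of 1.37. These are the members with the smallest p-values, and none of the 3 passed the test after median-ratio scaling. There Ndufb11 alone was called, in the negative direction, where 4.70% of all genes were.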

How the results depend on the processing

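Counts of called members in limma moved by over 1.5 times under these settings. The WT stage count of 81 became 41 with median-ratio and 39 with equal-sum scaling, and the KO-labelled one of 82 became 52 with equal sums. The LZ genotype count of 13 became 5 with a pseudocount of 5, 27 with a filter of 5, and 0 with no filter, with either rescaling or with the 6 LZ libraries alone, where 48 were lower at unadjusted p under 0.05 (4682 of 15400 genes passed, in either direction). The pachytene genotype count of 34 became 14 with no filter, 4 with median-ratio and 7 with equal-sum scaling, and the interaction count of 69 became 1 and 6. With 1 library left out in turn, the LZ genotype count ranged from 0 to 49 and the pachytene one from 0 to 44. Over all 15400 genes the same counts ranged from 4 to 2936 and from 1348 to 6952. The log2 ratio difference of Cox6a2 to Cox6a1 was -0.024 with a pseudocount of 0.1 and 0.61 with equal sums. The cause was not tested.

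With median-ratio scaling, 21 of 83 members had a WT stage difference below 0 and 18 a KO-labelled one, against 0 of 84 on the spike-in scale. Among the single-gene differences recomputed for each setting, these changed sign: between the WT stages, Atp5b (-0.11), Atp5g2 (-1.57), Cox4nb (-1.11), Cox7a2l (-0.16), Ndufa1 (-1.65), Ndufa4 (-1.24), Ndufaf1 (-0.29), Ndufaf4 (-0.24), Ndufb11 (-0.69), Ndufs7 (-0.20), Uqcr11 (-0.058) and Uqcrh (-0.059); between the KO-labelled stages, Atp5g2 (-2.35), Cox4nb (-1.36), Cox7b (-1.24), Ndufa1 (-2.84), Ndufa4 (-2.37), Ndufaf4 (-0.80), Ndufb11 (-2.36), Sdhc (-0.010) and Uqcr11 (-0.23); between genotypes at LZ, Atp5g2 (0.28), Cox7b (0.48), Ndufa1 (0.074), Ndufaf1 (0.34), Ndufb11 (0.30), Sdhc (0.13) and Uqcrb (0.19); between genotypes at pachytene, Uqcr11 (-0.26). With equal sums, 32 of 83 members had a WT stage difference below 0 and 42 a KO-labelled one, against 0 of 84 on the spike-in scale. Among the single-gene differences recomputed for each setting, these changed sign: between the WT stages, Atp5a1 (-0.15), Atp5b (-0.39), Atp5g2 (-1.86), Cox4nb (-1.36), Cox5a (-0.012), Cox7a2l (-0.44), Cox7b (-0.040), Ndufa1 (-1.94), Ndufa4 (-1.53), Ndufaf1 (-0.57), Ndufaf4 (-0.48), Ndufb11 (-0.97), Ndufs1 (-0.23), Ndufs7 (-0.48), Ndufv1 (-0.27), Sdhc (-0.28), Sdhd (-0.079), Uqcr11 (-0.34) and Uqcrh (-0.34); between the KO-labelled stages, Atp5g2 (-2.94), Cox4nb (-1.90), Cox7b (-1.78), Ndufa1 (-3.45), Ndufa4 (-2.97), Ndufaf4 (-1.27), Ndufb11 (-2.92), Sdhb (-0.022), Sdhc (-0.62), Sdhd (-0.14) and Uqcr11 (-0.83); between genotypes at LZ, Atp5g2 (0.38), Cox7b (0.57), Ndufa1 (0.17), Ndufaf1 (0.43), Ndufb11 (0.39), Sdhc (0.22) and Uqcrb (0.28); between genotypes at pachytene, Sdhb (-0.16) and Uqcr11 (-0.49). With 1 library left out in turn, the sign changed in at least 1 setting for Ndufa1 between the KO-labelled stages (-0.066 to 0.35), Cox7a1 between genotypes at LZ (-0.28 to 0.44), Cox7b between genotypes at LZ (-0.28 to 0.18), Ndufaf1 between genotypes at LZ (-0.42 to 0.013), Ndufaf4 between genotypes at pachytene (-0.29 to 0.050) and Uqcr11 between genotypes at pachytene (-0.068 to 0.26). The cause was not tested.

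Same-numbered libraries correlated in their deviations from the group means between -0.167 and 0.259. Across stages within a genotype these correlations were 0.163, 0.137 and 0.027 in WT and 0.0827, 0.259 and 0.141 in KO-labelled cells. Differently numbered libraries there correlated between -0.204 and 0.0736 in WT and between -0.257 and 0.157 in KO-labelled cells. The labels do not say whether a number marks a shared animal or day, and these correlations cannot decide it. With the replicate number as a block, 9 members were called between genotypes at LZ and 25 at pachytene, 81 and 83 between the stages and 68 in the interaction. The isoform log2 ratio differences of Ndufa4l2 to Ndufa4 (2.04) and Atp5g1 to Atp5g3 (-0.38) had an adjusted p of 0.0625 in the exact permutation within blocks. The depth of the libraries is unknown, so no counting error could be given, and values near 0, such as those of Cox4i2, Cox6a2 and Cox8b, cannot be told from failed estimates.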
